A study of Mus musculus with 12 samples.

Results

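The comparison set mice that had received both ethanol as pups and an enriched cage against mice that had received neither, at the level of hippocampal RNA. It used 6 of the 12 libraries of the series, 3 per group, and covered the 14947 of 36119 genes whose mean over the 12 libraries was at least 1 TPM (a level corrected for gene length and library size). The mice were C57BL/6 and were killed at postnatal day 70. Ethanol-enriched mice had received ethanol under the skin at 2.5 g/kg, dissolved in 0.15 M saline, and saline-standard mice the saline alone. Pups were injected on postnatal days 6 and 7, with 2 injections per day separated by 2 hours. After random assignment at day 21, the first group lived in large cages of 2 to 6 littermates of the same sex with wheels, ladders, toys and hidden food, and the second in standard cages. Mice given ethanol and kept in standard cages (ethanol-standard) and mice given saline and kept in enriched cages (saline-enriched), 3 libraries each, entered the same fit and are quoted beside the main values. The labels call the ethanol prenatal although every injection was given after birth, and sex, litter and hour of death are not given for single mice. Whether the mice of a group had different litters of origin is also not stated, so p-values measure only the spread between these libraries.

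The hippocampus holds the granule cells of the dentate gyrus, which are still produced in adult life, and the pyramidal cells of the CA fields. In rodents the first days after birth are a period of fast brain growth, in which ethanol kills neurons, and this window serves as a model of alcohol exposure late in human pregnancy. Housing with wheels, objects and company is known to raise the survival of newborn granule neurons and to change synapses and growth factors. Both exposures differ between the groups, so effects of ethanol and of housing cannot be told apart from these 6 libraries alone.

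The labelled tissue held its markers. All 8 hippocampal marker genes checked (Prox1 and C1ql2 of granule cells, Calb1, Wfs1, Fibcd1 and Bok, and the broader Neurod6 and Zbtb20) lay between 18.7 and 164 TPM in each of the 12 libraries. In bulk tissue, fewer cells of a type and less RNA per cell cannot be told apart. A pair of libraries stood apart in the comparison. Saline-standard 2 had the highest granule cell markers (a list mean of 0.51, as the difference from the mean over 12 libraries on the log2 scale) of the series and the lowest markers of meningeal fibroblasts (-1.13), of myelin (-0.39) and of activity-regulated early genes (-0.61). Ethanol-enriched 3 lacked a pattern seen in both other libraries of its group: the list means of heat shock chaperones were 0.41, 0.39 and -0.07 in libraries 1, 2 and 3. Results that rest on either library are therefore given with and without it. Sequencing depth is unknown, since TPM keeps no counts.

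**Figure D1:**
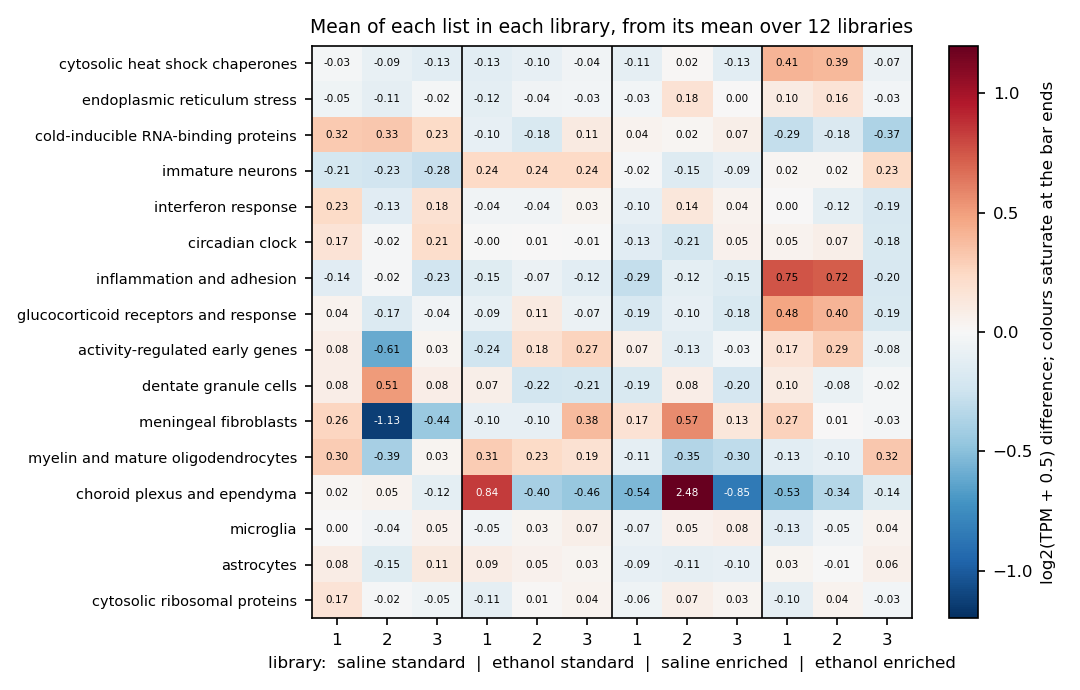
Each cell is the mean of 1 gene list in 1 library, as the difference of log2(TPM + 0.5) from the list's mean over the 12 libraries, with columns grouped by treatment and housing. Saline-standard 2 is set apart by granule cell, meningeal and early genes, and ethanol-enriched 1 and 2 by heat shock and glucocorticoid genes. The inflammation row includes Cxcl1, which reached the filter only through ethanol-enriched 1 and 2, so that row is not read as a difference between libraries.

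Few single genes differed beyond the spread between libraries. Of the 14947 genes tested, 2 passed, which is 0.0134% (limma on log2(TPM + 0.5), Benjamini-Hochberg adjusted p under 0.05), and both were lower in ethanol-enriched mice. The median log2 fold change was -0.00 and 49.3% of genes lay above 0. An unadjusted p under 0.05 was reached by 485 genes in the higher direction (3.24%) and by 489 in the lower direction (3.27%). The 3 ethanol-enriched values lay above all 3 saline-standard values for 758 genes (5.07%) and below all 3 for 835 genes (5.59%). These shares are the background against which counts of list members are read below, and "no overlap" means a complete separation of the 3 and 3 values. The fold passed 2 (a log2 fold change past 1 or -1) for 206 genes, of which 103 were higher and 166 had a mean under 5 TPM. At the filter itself, the predicted gene Gm12854 entered with a mean just above 1 TPM (0 in saline-standard and 1.51 in ethanol-enriched mice on average), while Fam167a stayed out with a mean of 0.9998 and averaged 0.951 in saline-standard and 0.978 in ethanol-enriched mice.

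**Figure D2:**
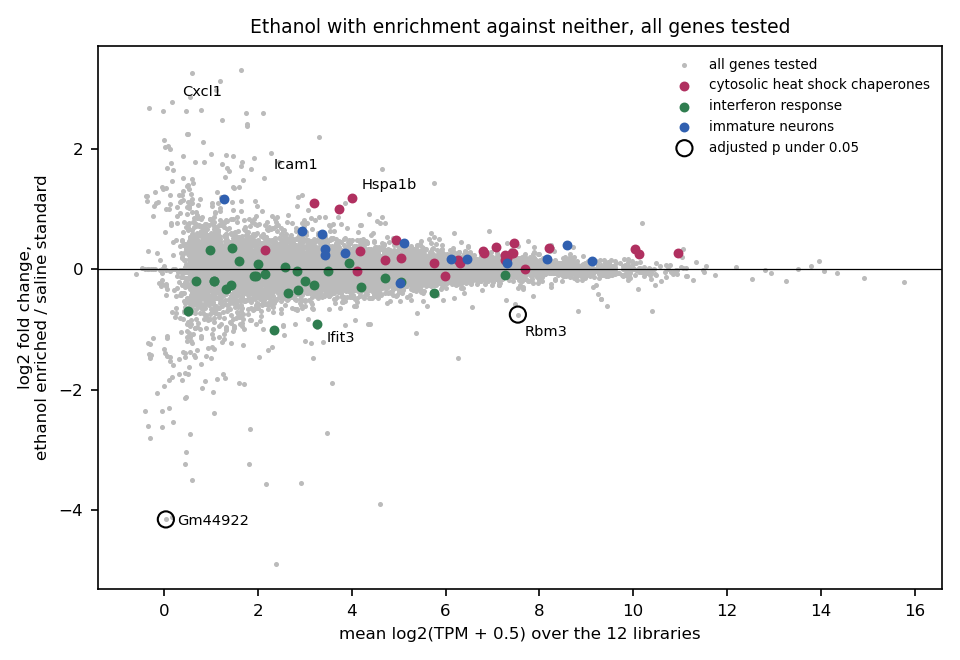
Log2 fold change of ethanol-enriched over saline-standard mice for the 14947 genes tested (vertical) against their mean log2(TPM + 0.5) (horizontal), with 3 gene lists in colour. The 2 circled genes, Rbm3 and Gm44922, passed at an adjusted p under 0.05; heat shock chaperones lie mostly above 0 and interferon response genes mostly below.

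The cold-inducible RNA-binding protein Rbm3 fell. Rbm3 binds RNA and ribosomes, is induced by mild cooling and is known for protecting synapses in cooled mice. Its gene (ENSMUSG00000031167; GRCm38 chromosome X, 8138975 to 8145880, minus strand) was at 240.1, 258 and 237 TPM in saline-standard mice and at 144, 163 and 129.6 in ethanol-enriched mice. Every ethanol-enriched value lay below every saline-standard value, and the means were 146 ± 16.7 and 245 ± 11.3 TPM (SD, n = 3 each). The log2 fold change was -0.75 (SE 0.09; limma, Benjamini-Hochberg adjusted p = 0.0205). Both single exposures lay between these groups, with 180.2, 179 and 202 TPM in ethanol-standard mice and 169.5, 172 and 199.6 in saline-enriched mice. Against saline-standard mice their log2 fold changes were -0.39 and -0.44, and these comparisons share the saline-standard libraries with the main one. The interaction term, the departure of the double exposure from the sum of both, was 0.08 (SE 0.13; adjusted p = 0.911, limma). Set directly against ethanol-standard and saline-enriched mice, which share the ethanol-enriched libraries, its log2 fold changes were -0.36 and -0.31 (SE 0.09 each; adjusted p = 0.765 and 0.576, limma), so neither passed. Rbm3 passed in 7 of 16 alternatives, and its log2 fold change stayed between -0.84 and -0.67 over all of them. The adjusted p of Rbm3 was 0.0549, 0.0514 and 0.107 without saline-standard 1, 2 and 3, 0.171 without ethanol-enriched 1, 0.231 with the 6 libraries alone, 0.113 with the replicate number as a block, 0.101 without the variance trend, 0.0628 with no filter and 0.0510 with array weights (limma).

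Cirbp, the other cold-inducible RNA-binding protein listed, was also lower and did not pass. It was at 100.3, 95 and 90.7 TPM in saline-standard mice and at 72.1, 74.3 and 71.1 in ethanol-enriched mice, with no overlap (log2 fold change -0.39, SE 0.09; adjusted p = 0.478, limma). Cirbp had another order of the single exposures than Rbm3. Its values were 74.7, 67.1 and 89.5 TPM after ethanol in standard cages and 97.3, 93.6 and 86 after saline in enriched cages, log2 fold changes of -0.31 and -0.05. The ethanol-standard values thus spanned the level of the ethanol-enriched mice, and those of saline-enriched mice overlapped with the saline-standard level.

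The other gene that passed is a pseudogene. Gm44922 (ENSMUSG00000108673, chromosome 11, 73413319 to 73413408) was at 8.47, 8.41 and 8.35 TPM in saline-standard mice and listed at 0 in all 9 other libraries (limma adjusted p = 5.67e-05). A value of 0 in a table without counts can be a failed estimate, and reads of near-identical copies are divided by estimation, so no fold is given. The same limit holds for Rps27rt, a retrocopy of the ribosomal protein gene Rps27, which was at 19, 2.31 and 11.3 TPM in saline-standard mice and listed at 0 in all ethanol-enriched mice.

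Heat shock chaperones, listed as cytosolic but including the mitochondrial Hspd1 and Hspe1, were higher as a list in 2 of the 3 ethanol-enriched libraries. Their list mean was 0.41, 0.39 and -0.07 there and -0.03, -0.09 and -0.13 in saline-standard mice, so ethanol-enriched 3 lay within the control range. These proteins fold new and damaged proteins, and many of their genes are switched on by heat shock factor 1 when unfolded protein builds up. Of the 27 genes tested, none passed, 25 had a log2 fold change above 0, 15 reached an unadjusted p under 0.05 in the higher direction against 3.24% of all genes, and 10 separated the groups upward against 5.07% of all genes. The median log2 fold change was 0.27 against -0.00 over all genes. It was 0.24 without saline-standard 2 and 0.34 without ethanol-enriched 3. The single exposures, compared with the same saline-standard libraries, gave list medians of 0.02 for ethanol in standard cages and 0.05 for enrichment with saline.

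The members that separated were abundant chaperones, none of which passed. Hspa8, the constitutive Hsp70, was at 1892, 1877 and 1756 TPM in saline-standard mice and at 2314, 2364 and 1977 in ethanol-enriched mice (log2 fold change 0.26, SE 0.07; adjusted p = 0.548, limma). Hsph1, an exchange factor for Hsp70, was at 157, 154 and 163 against 239, 224 and 180.4 TPM (log2 fold change 0.43, SE 0.10; adjusted p = 0.478, limma). Neither overlapped between the groups, and for both the lowest ethanol-enriched value was that of library 3. Hsp90aa1, the inducible Hsp90, was at 950.5, 981 and 864 against 1220.0, 1296 and 1029.8 TPM (log2 fold change 0.34, SE 0.10). Hsp90ab1, the constitutive Hsp90, was at 1045, 1137 and 1002 against 1335, 1299.8 and 1163 TPM (log2 fold change 0.25, SE 0.07). Again library 3 was the lowest of the ethanol-enriched values for both. Among cochaperones of Hsp90, Fkbp4 and Ahsa1 separated while Stip1, Chordc1 and Ahsa2 did not. Fkbp4 was at 105, 101 and 110.0 against 139.8, 134 and 118 TPM (log2 fold change 0.30, SE 0.07), and Ahsa1, which stimulates the ATPase of Hsp90, at 167, 161 and 147 against 195, 199 and 181 TPM (log2 fold change 0.28, SE 0.07). The mitochondrial chaperonin Hspd1 was at 164, 168 and 149 against 196, 201 and 181 TPM (log2 fold change 0.27, SE 0.08), also without overlap. Hspa4, Hspa4l and Dnaja1 complete the 10 genes that separated.

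The strongly inducible chaperones were high in 2 of 3 ethanol-enriched libraries. Hspa1a was at 12.3, 11.1 and 10.9 TPM in saline-standard mice and at 39.9, 40.0 and 7.96 in ethanol-enriched mice, and its neighbour Hspa1b at 10.8, 14.4 and 14.6 and 48.9, 50.2 and 11.3 TPM. Ethanol-enriched 1 and 2 thus exceeded every other library of the series for both genes, while library 3 lay at or below the control level. Hspa1a and Hspa1b are near-identical copies among which reads are divided by estimation, so their separate levels are uncertain. The small heat shock protein Hspb1 had the same split, with 9.28, 5.66 and 7.41 against 25.8, 24.6 and 6.67 TPM. So did Dnajb1, a cofactor of Hsp70, with 32.9, 24.9 and 28.2 against 47.3, 52.8 and 25.6 TPM. With all libraries the log2 fold change of Hspa1b was 1.18 (SE 0.43; limma adjusted p = 0.699). Without ethanol-enriched 3, the library picked out by its low values, it was 1.87 (adjusted p = 4.96e-04), and Hspa1a and Hsph1 passed as well (1.76 and 0.55; limma adjusted p = 2.43e-04 and 0.0453). Without ethanol-enriched 1 or 2 in its place it was 0.84 and 0.82, with no call. Hsf1, the transcription factor itself, was at 18.2, 18.7 and 16 against 18.3, 15.6 and 17.8 TPM.

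**Figure D3:**
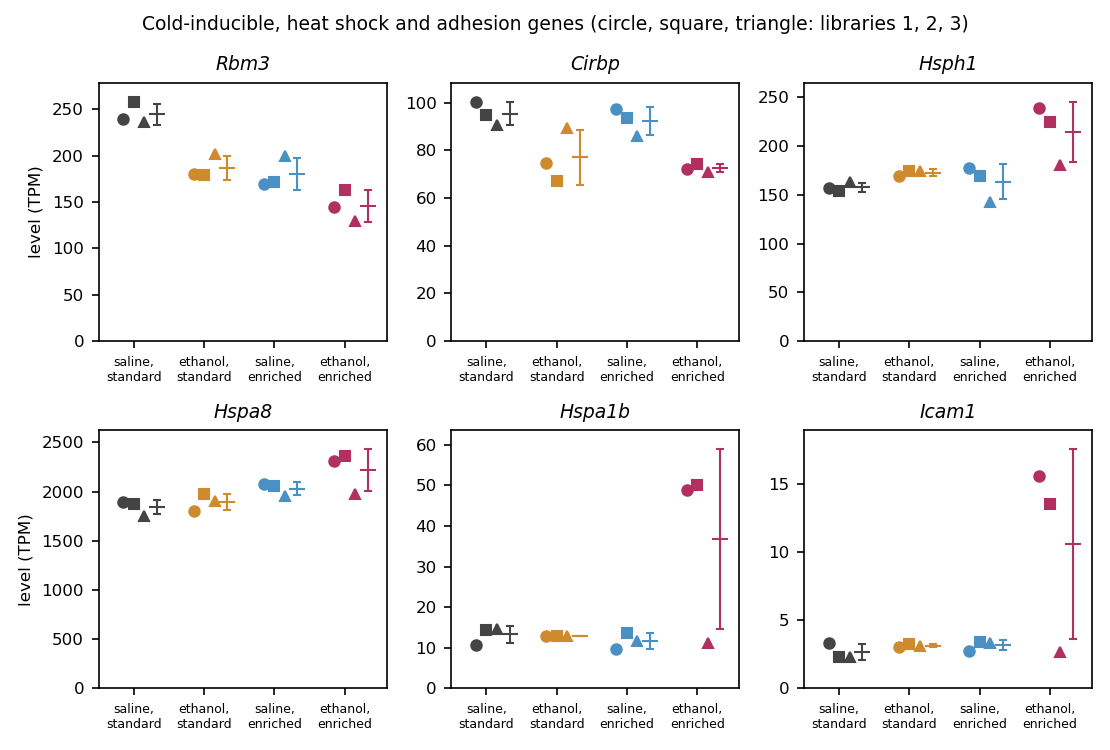
Levels in TPM of 6 genes in each library, with the mean and SD of each group of 3 beside the points. Mean levels of Rbm3 and Cirbp are lowest and those of Hsph1 and Hspa8 highest in ethanol-enriched mice, and for Hspa1b and Icam1 libraries 1 and 2 stand far above library 3.

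Promoter sequences are shown for 2 chaperone genes because their binding letters for heat shock factor can be read directly. The sequences are the 250 bases before the start in RefSeq (GRCm38.p6), given 5′ to 3′ on the gene's strand, with capitals marking the heat shock element letters GAANNTTC or TTCNNGAA on either strand.
Hspa1b, chr17:34959239-34959488, minus strand: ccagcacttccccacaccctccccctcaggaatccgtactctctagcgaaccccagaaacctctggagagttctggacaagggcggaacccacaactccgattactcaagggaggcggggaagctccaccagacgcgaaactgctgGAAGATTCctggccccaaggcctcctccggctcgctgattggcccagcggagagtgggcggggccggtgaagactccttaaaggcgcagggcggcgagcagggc
Hspd1, chr1:55087933-55088182, minus strand: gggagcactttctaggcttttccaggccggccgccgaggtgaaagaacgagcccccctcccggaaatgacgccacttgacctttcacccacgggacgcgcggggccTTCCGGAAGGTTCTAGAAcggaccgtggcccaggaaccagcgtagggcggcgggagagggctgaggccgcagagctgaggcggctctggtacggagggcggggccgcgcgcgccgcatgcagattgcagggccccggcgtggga
Hspa1b holds 1 match, which begins 104 bases before the start, and the Hspd1 window shown holds 3 overlapping matches, beginning 144 to 134 bases before its start. RefSeq gives Hspd1 another start, and the window before that one (chr1:55088244-55088493) holds 0 matches. Over windows of 300 bases (250 before to 50 after a start), 16 of 32 promoters of the chaperone list held either form, which is 50.0%, against 15.1% of all 32851 promoters. They belong to 14 of 22 list genes matched by symbol. A match is a description of letters and not a measured site.

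The endoplasmic reticulum list had a smaller difference. These genes serve the folding of secreted and membrane proteins and are switched on by the unfolded protein response. Of 25 genes tested, 22 lay above 0 and 7 separated the groups upward (5.07% of all genes did), with a list median of 0.12 (0.08 without saline-standard 2 and 0.16 without ethanol-enriched 3). The list mean was 0.10, 0.16 and -0.03 in ethanol-enriched and -0.05, -0.11 and -0.02 in saline-standard mice, which places ethanol-enriched 3 within the control range. None of the genes passed. Calr, a calcium-binding lectin chaperone, was at 351, 346 and 280.2 TPM in saline-standard mice and at 449, 439.9 and 409 in ethanol-enriched mice (log2 fold change 0.42, SE 0.11). Canx, its membrane-bound relative, was at 379.7, 378 and 365 against 440.1, 407 and 442 TPM (log2 fold change 0.20, SE 0.05). Hsp90b1 was at 290.3, 260.0 and 242 against 350.4, 312 and 317 TPM (log2 fold change 0.31, SE 0.10). For all 3 genes each ethanol-enriched library lay above the controls. Hspa5, the reticulum's Hsp70, was at 212, 219.5 and 219 against 301, 329 and 224 TPM, with library 3 barely above the controls. The separated members were chaperones, disulfide isomerases (Pdia4 and Pdia6) and the degradation factor Sel1l. Signalling members overlapped: the transcription factor Ddit3 was at 43.5, 42.1 and 43.2 against 46.5, 42.5 and 48.4 TPM and Atf4 at 135, 99.5 and 119 against 126, 145 and 108 TPM. Enrichment with saline gave a list median of 0.10 and ethanol in standard cages 0.00. By library, the list mean was -0.03, 0.18 and 0.00 in saline-enriched mice, so the value for enrichment rested largely on saline-enriched 2.

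The ER stress element, in which CCAAT and CCACG are separated by 9 bases, is shown in capitals in 2 promoters of genes that separated.
Calr, chr8:84846932-84847181, minus strand: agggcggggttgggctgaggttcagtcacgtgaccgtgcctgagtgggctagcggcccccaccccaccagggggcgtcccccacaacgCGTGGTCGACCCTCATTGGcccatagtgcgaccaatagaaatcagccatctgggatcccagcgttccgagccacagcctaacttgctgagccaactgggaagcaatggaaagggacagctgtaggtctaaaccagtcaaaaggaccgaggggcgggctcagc
Hsp90b1, chr10:86705445-86705694, minus strand: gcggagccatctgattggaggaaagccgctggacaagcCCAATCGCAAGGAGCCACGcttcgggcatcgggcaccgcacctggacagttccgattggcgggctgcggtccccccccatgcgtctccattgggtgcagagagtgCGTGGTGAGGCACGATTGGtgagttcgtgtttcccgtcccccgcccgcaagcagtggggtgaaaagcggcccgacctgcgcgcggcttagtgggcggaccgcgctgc
Of 22 promoters of the list, 7 held the element (31.8%), against 0.119% of all promoters. They belong to Calr, Canx, Creld2, Dnajc3, Hsp90b1, Hspa5 and Pdia6, of which Creld2 and Dnajc3 did not separate the groups.

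Genes of adhesion and inflammation were high in the same 2 ethanol-enriched libraries. They are induced in vessels and glia by cytokines through NF-kappa B. Of the 27 listed genes, 16 reached the filter. Cxcl1 did so only through ethanol-enriched 1 and 2, so no count or median over the list is given. Icam1, a leukocyte adhesion receptor of endothelium, was at 3.31, 2.33 and 2.33 TPM in saline-standard mice and at 15.5, 13.6 and 2.64 in ethanol-enriched mice. The chemokine Cxcl1 was at 0.0822, 0.172 and 0.0760 against 12.5, 7.93 and 0.173 TPM, and the iron carrier Lcn2 at 1.16, 0.906 and 0.431 against 20.6, 14.1 and 0.728 TPM. For these 3 genes libraries 1 and 2 exceeded all other libraries of the series and library 3 did not. Vcam1, a second adhesion receptor, was at 19.7, 17.6 and 18.7 against 42.3, 39.9 and 20.8 TPM and separated narrowly, as did Cxcl1. With all libraries the log2 fold change of Icam1 was 1.51 (SE 0.47; adjusted p = 0.611, limma). It was 2.27 without ethanol-enriched 3 (adjusted p = 4.96e-04), and 1.09 and 1.18 without ethanol-enriched 1 and 2 (adjusted p = 0.950 and 0.865, limma). Icam1 thus passed only without the library picked out by its low values. Cxcl10, which interferon also induces, had its highest value in a control, at 3.54, 1.67 and 1.63 against 0.694, 1.67 and 0.582 TPM.

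Marker genes of endothelium gave 9 of 16 above 0 and a summed level of 745, 678 and 669 TPM in saline-standard against 755, 720.4 and 782 in ethanol-enriched mice, and their part in the adhesion genes was not tested.

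Some stress hormone targets had the same split. Glucocorticoids act on the hippocampus through Nr3c1 and Nr3c2, and neither receptor separated the groups, with Nr3c1 at 73.9, 60.7 and 71.3 against 62.9, 70.8 and 65 TPM. Among targets, the kinase Sgk1 was at 76.7, 66.8 and 62 against 144, 150.4 and 51.4 TPM. Ddit4, an inhibitor of mTOR signalling, was at 46.7, 36.3 and 41.6 against 62.7, 63.9 and 43.2 TPM. Both were high in ethanol-enriched 1 and 2 and not in 3. Fkbp5, a classical target, was at 32.4, 48.7 and 45.1 against 49.8, 40.2 and 30.9 TPM and overlapped. The list median over 22 genes was 0.13, and 0.31 without ethanol-enriched 3, the library picked out by its low values. These genes include Lcn2, given above, whose highest values were those of ethanol-enriched 1 and 2. Of the 22 genes, 1 separated upward (4.5%, a share near the 5.07% of all genes). It was Cdkn1a, a cell cycle inhibitor, at 2.20, 1.88 and 2.52 against 4.22, 4.03 and 4.70 TPM with all 3 libraries above the controls (log2 fold change 0.84, SE 0.17; adjusted p = 0.425, limma).

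**Figure D4:**
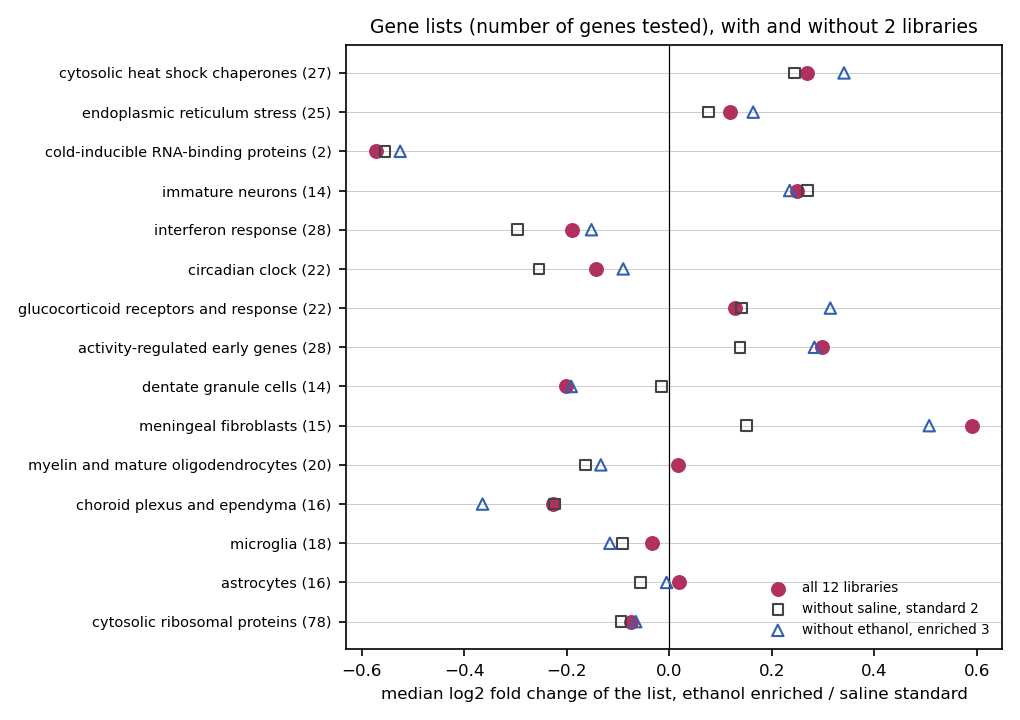
Median log2 fold change of ethanol-enriched over saline-standard mice for 15 gene lists, with all libraries, without saline-standard 2 and without ethanol-enriched 3. Heat shock, immature neuron, cold-inducible, interferon and clock lists keep their side of 0 in all 3 cases, while the granule cell and meningeal medians move toward 0 without saline-standard 2.

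Genes of immature neurons were higher in ethanol-enriched mice, also without the libraries that stood apart. The list mean was 0.02, 0.02 and 0.23 in ethanol-enriched against -0.21, -0.23 and -0.28 in saline-standard mice. Of 14 tested, 13 lay above 0 and 7 separated the groups, against 5.07% of all genes. The list median was 0.25 (0.27 without saline-standard 2 and 0.23 without ethanol-enriched 3), and no member passed. Sox11, a transcription factor of young neurons, was at 7.12, 8.68 and 7.90 TPM in saline-standard mice and at 12.5, 12 and 11.6 in ethanol-enriched mice (log2 fold change 0.58, SE 0.10; adjusted p = 0.197, limma). Doublecortin (Dcx), a microtubule protein of migrating neurons, was at 5.46, 4.06 and 6.04 against 8.27, 8.39 and 7.96 TPM (log2 fold change 0.63, SE 0.14; adjusted p = 0.429, limma). The growth cone protein Dpysl3 was at 28.9, 26.2 and 28.1 against 34.6, 36.5 and 42.9 TPM (log2 fold change 0.44, SE 0.10). In each of these the 3 ethanol-enriched values lay well clear of the controls. Nnat, Sox4, Marcks and Tubb3 make up the 7. Calb2, which newborn granule cells share with interneurons, was the 1 member below 0, at 27, 42.3 and 35.5 against 25.6, 26.2 and 37.7 TPM. The single exposures gave list medians of 0.42 for ethanol in standard cages and 0.19 for enrichment with saline. Sox11 was at 11.7, 11.3 and 10.7 TPM in ethanol-standard mice, within the range of the ethanol-enriched mice or just below it, and at 8.10, 8.78 and 9.08 in saline-enriched mice.

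Progenitor and cell cycle genes did not follow as lists. The Notch target Hes5 of progenitors was lower at 16.5, 17.5 and 16.7 against 10.4, 11 and 13.3 TPM (log2 fold change -0.54, SE 0.14). The kinase Cdk1 of dividing cells was at 0.915, 1.17 and 1.03 against 1.64, 2.77 and 2.01 TPM. Both separated the groups without passing, and so did Thrsp and Cdkn1a. The medians over 16 progenitor and 13 cell cycle genes were -0.00 and 0.03.

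Interferon response genes were mostly lower, without separating the groups as a list. They are induced by type I interferon through factors that include Stat2 and Irf9. Of 28 tested, 22 lay below 0, 4 separated the groups downward (5.59% of all genes did) and none upward, and the median was -0.19. By library, the list mean was 0.23, -0.13 and 0.18 in saline-standard and 0.00, -0.12 and -0.19 in ethanol-enriched mice. Saline-standard 2 thus lay below ethanol-enriched 1 and 2. Ifit3, which binds the antiviral signalling complex, was at 15.5, 10.7 and 15.6 TPM in saline-standard mice and at 6.82, 6.73 and 7.66 in ethanol-enriched mice (log2 fold change -0.91, SE 0.16; adjusted p = 0.197, limma). Without saline-standard 2, the lowest control, Ifit3 passed (log2 fold change -1.09; adjusted p = 0.0217, limma). Reads shared with its neighbouring copy Ifit3b are divided by estimation, so the split between them is uncertain. Ifit3b was at 6.42, 6.24 and 8.35 against 3.77, 3.26 and 2.66 TPM (log2 fold change -1.01, SE 0.19). Ifi27, a mitochondrial protein, was at 62.4, 56.6 and 55.9 against 41.4, 44.6 and 46.3 TPM (log2 fold change -0.40, SE 0.12), and the RNA sensor Ddx58 at 6.09, 8.20 and 7.18 against 5.44, 4.56 and 6.00 TPM. All 4 were lower in each ethanol-enriched library than in any control. Stat2 and Irf9 did not separate, with Stat2 at 10.1, 12.5 and 11 against 9.34, 11.6 and 12 TPM. Both single exposures also had Ifit3 below the controls, at 6.64, 8.58 and 8.51 TPM in ethanol-standard and 7.84, 9.40 and 9.03 in saline-enriched mice. The median was -0.30 without saline-standard 2 and -0.15 without ethanol-enriched 3.

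The Ifit3 promoter is shown because it carries the letters of the interferon element, GAAA, 2 bases and GAAA on either strand (in capitals); this motif was added after the values were seen.
Ifit3, chr19:34583279-34583528, plus strand: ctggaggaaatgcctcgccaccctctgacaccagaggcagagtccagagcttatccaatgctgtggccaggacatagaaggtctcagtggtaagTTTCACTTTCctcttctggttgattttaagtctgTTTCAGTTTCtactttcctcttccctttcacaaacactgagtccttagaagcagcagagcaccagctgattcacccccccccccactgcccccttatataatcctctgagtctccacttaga
It holds 2 matches within the 250 bases before the start. Of 29 promoters of the list, 14 held the element (48.3%), against 3.44% of all promoters.

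Clock genes lay on both sides of 0. In this system Arntl and Clock drive Per, Cry and Nr1d genes and the output factors Dbp, Tef and Hlf, whose products feed back, so that both arms peak at opposite times of day. Of 22 genes, 2 separated upward (5.07% of all genes did), Arntl and Clock, and 8 downward (5.59% of all genes), Dbp, Ciart, Nr1d2, Tef, Bhlhe40, Bhlhe41, Per3 and the kinase Csnk1d. No gene passed, and the list median was -0.14 (-0.25 without saline-standard 2 and -0.09 without ethanol-enriched 3). Arntl was at 20.5, 22.7 and 19 TPM in saline-standard mice and at 24.7, 24.9 and 30.6 in ethanol-enriched mice (log2 fold change 0.35, SE 0.12). Dbp was at 82.5, 68 and 81.2 against 52.5, 62.2 and 47.9 TPM (log2 fold change -0.51, SE 0.11; adjusted p = 0.429, limma). Ciart, a repressor in the loop, was at 18.7, 17.7 and 17.9 against 11.3, 15 and 8.70 TPM (log2 fold change -0.65, SE 0.17). Per1 overlapped, at 27.6, 23.5 and 38.5 against 32, 35.7 and 17.8 TPM, and ethanol-enriched 3 was the lowest of its group for Dbp, Ciart and Per1. In saline-enriched mice Arntl was at 39.7, 31.1 and 31 and Dbp at 47.1, 43.5 and 53.8 TPM, whereas ethanol-standard mice had Arntl at 19.6, 20.9 and 21.1 and Dbp at 70.0, 74.5 and 69.7 TPM. Mean Arntl was thus highest and mean Dbp lowest in saline-enriched mice, with the double exposure between them and the controls. The E-box CACGTG, to which Arntl and Clock bind, was in 22.2% of 27 clock promoters against 7.15% of all promoters, and in the same share of 27 promoters of activity-regulated early genes.

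**Figure D5:**
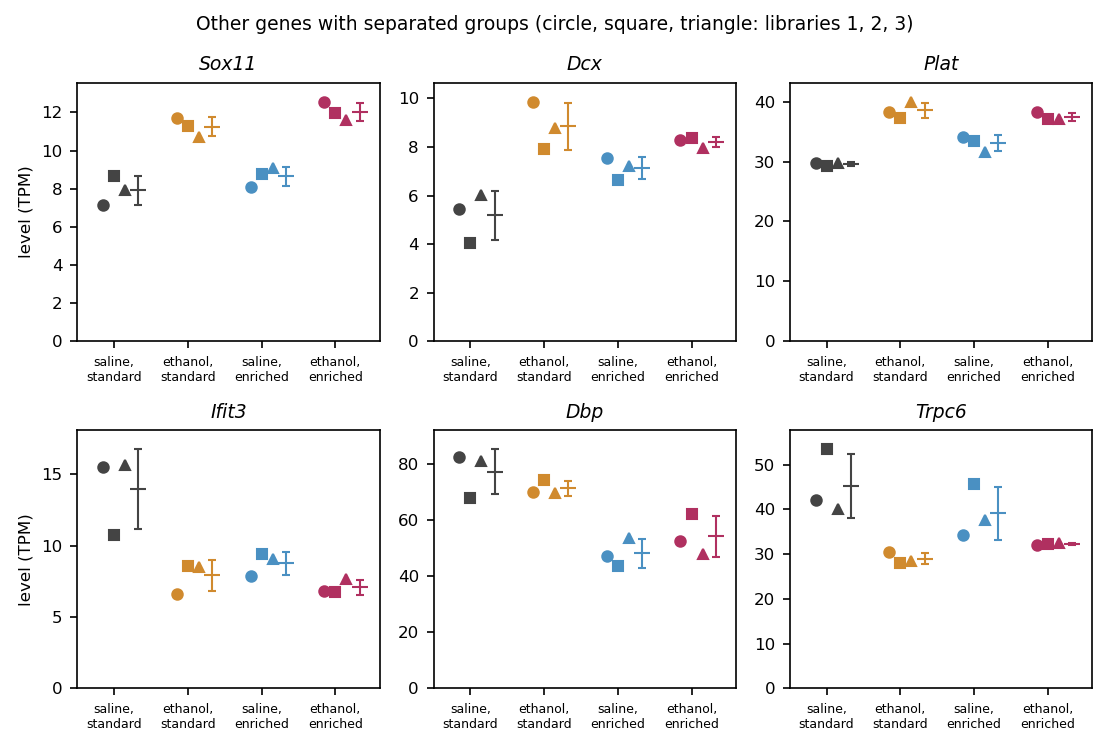
Levels in TPM of 6 genes in each library, with the mean and SD of each group of 3 beside the points. Sox11, Dcx and Plat are higher and Ifit3, Dbp and Trpc6 lower in ethanol-enriched than in saline-standard mice without overlap, and of these the mean of Dbp alone is nearer to that of saline-enriched than to that of ethanol-standard mice.

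Some group differences rested on saline-standard 2. Markers of dentate granule cells were lower, with 12 of 14 below 0 and a median of -0.20, which became -0.01 without that library. Of the 14, 3 separated downward (21.4%, against 5.59% of all genes). The summed level of the list was 553, 728 and 563 TPM in saline-standard mice and 585, 518 and 538 in ethanol-enriched mice. The cation channel Trpc6 was the member with the smallest p, at 42.1, 53.4 and 40.0 against 32, 32.2 and 32.6 TPM (log2 fold change -0.47, SE 0.12), and its log2 fold change without saline-standard 2 was -0.34. The kinase Plk5 and the desmosome protein Dsp were the others that separated. Prox1, the granule cell's identity factor, overlapped at 23.2, 40.4 and 31.4 against 29.5, 23.8 and 28 TPM.

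Activity-regulated early genes, which neurons transcribe within minutes of firing, gave 25 of 28 above 0, a median of 0.30, and 0.14 without saline-standard 2. Fos was at 34.5, 5.13 and 27.4 TPM in saline-standard mice and at 30.2, 43.2 and 19.5 in ethanol-enriched mice. Its log2 fold change was 0.76 with all libraries and -0.06 without saline-standard 2. Arc, a synaptic capsid-like protein, was at 160.3, 54.4 and 135 against 185, 233 and 102 TPM, and its value moved from 0.63 to 0.16. The 4 genes that separated, all upward (14.3%, against 5.07% of all genes), were Fosl2, Dusp1, Npas4 and Homer1. Fosl2 was at 16.9, 15.6 and 19.8 against 21.2, 20.2 and 20.9 TPM (log2 fold change 0.26, SE 0.10). The cAMP response element TGACGTCA was in only 2 of 27 promoters of the list, those of Btg2 and Dusp1 (7.41%, against 1.79% of all promoters).

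Meningeal fibroblast markers, which a dissected hippocampus carries in varying amounts with its membranes, were higher in 14 of 15 members, none separated, and the median of 0.59 became 0.15 without saline-standard 2. Their summed level was 197, 97.6 and 139 TPM in saline-standard mice and 207, 177 and 188 in ethanol-enriched mice. The part of adhering tissue in any other result was not tested. Choroid plexus markers had a median of -0.23 (-0.36 without ethanol-enriched 3), and their summed level was 9287 TPM in saline-enriched 2, which is in the same fit, against 209 to 777 TPM in the 11 other libraries. Transthyretin (Ttr) was at 118, 81.7 and 61.6 against 26.4, 31.4 and 32.3 TPM. Of 16 members, 13 lay below 0 and 4 separated downward (25%, against 5.59% of all genes). Myelin genes overlapped, with Mbp at 2513, 1466 and 2062 against 1689.5, 1773 and 2361 TPM, a list median of 0.02 and medians of -0.16 without saline-standard 2 and -0.13 without ethanol-enriched 3. Microglial markers had a median of -0.03 (-0.09 without saline-standard 2 and -0.12 without ethanol-enriched 3) and astrocytic markers of 0.02 (-0.06 and -0.01), and Gfap, the astrocyte filament, was at 260.0, 219.8 and 267 against 276, 251 and 242 TPM.

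Over all genes and lists, the named genes with the smallest p among those that separated upward were Sox11, Hist2h3c1, Plat, Dcun1d3, Ubap2, Sema3c, Washc4, Cdkn1a, Tmem130 and Dpysl3, none of which passed. Plat, the tissue plasminogen activator, which neurons release at synapses, was at 29.7, 29.2 and 29.7 TPM in saline-standard mice and 38.3, 37.1 and 37.1 in ethanol-enriched mice (log2 fold change 0.34, SE 0.06; adjusted p = 0.201, limma). It was at 38.4, 37.4 and 39.9 TPM in ethanol-standard and at 34.1, 33.5 and 31.7 in saline-enriched mice. The double exposure thus overlapped with ethanol alone and lay above all saline-enriched values. Dcun1d3, which regulates cullin ligases, was at 11.2, 12.8 and 14 against 21.8, 20.9 and 19.4 TPM (log2 fold change 0.69, SE 0.13). Neither single exposure approached that level, with 10.8, 13.8 and 14.6 TPM after ethanol and 11.9, 13.7 and 11.8 after enrichment (interaction 0.67, SE 0.18; limma adjusted p = 0.511). The guidance factor Sema3c was at 13.4, 15.4 and 13.3 against 20.2, 19.8 and 19.3 TPM (log2 fold change 0.48, SE 0.09), and the endosomal protein Washc4 at 25.4, 26.8 and 24.4 against 33.6, 34.8 and 33.6 TPM (log2 fold change 0.41, SE 0.08). Ubap2 was at 13.6, 14.7 and 17.6 against 36.9, 24.6 and 27.8 TPM, with library 1 highest. The histone gene Hist2h3c1, one of several near-identical copies, was at 3.73, 3.49 and 3.14 against 6.43, 5.82 and 8.16 TPM, an uncertain estimate for that reason.

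In the lower direction the corresponding genes were Rbm3, which passed, and Rps27rt, Ifit3, Ifit3b, Tmem181b-ps, Dbp, Kcnh3, Speer4b, Mtf2 and Trank1, which did not. Kcnh3, a voltage-gated potassium channel of forebrain neurons, was at 42.1, 44.6 and 44.4 TPM in saline-standard mice and at 33.7, 34.8 and 34.1 in ethanol-enriched mice (log2 fold change -0.35, SE 0.08; adjusted p = 0.429, limma). Mtf2, a Polycomb-like chromatin protein, was at 36.4, 33.7 and 34.9 against 27.7, 28.3 and 29.1 TPM (log2 fold change -0.30, SE 0.07). Trank1 was at 56.7, 51.6 and 52.6 against 39, 30.4 and 42.3 TPM (log2 fold change -0.53, SE 0.12). Each of these was lower in all 3 ethanol-enriched libraries, and for Mtf2 saline-enriched mice were at the control level, with 36.2, 34.7 and 37.9 TPM.

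Several functional groups contained a few separated genes. Of 45 splicing factors, 10 separated upward (22.2%, against 5.07% of all genes) and 1 downward (2.22%, against 5.59%) around a median of -0.00. Hnrnpa2b1, which binds RNA in the nucleus, was at 253, 238 and 222 against 301, 266 and 283 TPM (log2 fold change 0.25, SE 0.07), while Snrpb, a core spliceosome protein, was the lower one at 105, 105 and 102 against 88.6, 94.6 and 90.1 TPM. Of 18 genes for neuropeptides and proteins of their granules, 4 separated upward (Nts, Vgf, Chgb and Cartpt; 22.2% against 5.07%) and 1 downward (5.56% against 5.59%), Adcyap1 at 8.53, 7.78 and 8.19 against 7.35, 7.17 and 7.09 TPM. The granule protein Vgf was at 105, 112 and 116 against 123, 129 and 159 TPM (log2 fold change 0.29, SE 0.11). Of 24 apoptosis regulators, 19 lay above 0, 4 separated upward (16.7% against 5.07%) and 1, Casp9, downward (4.17% against 5.59%). Among those upward, Bbc3, a killer protein of the Bcl2 family, was at 5.06, 6.39 and 6.39 against 8.04, 10.8 and 9.29 TPM (log2 fold change 0.61, SE 0.17) and the protective Mcl1 at 40.6, 34.5 and 38.5 against 48.4, 45.2 and 40.6 TPM.

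Receptor and synaptic lists had medians near 0. They were 0.04 over 22 glutamate receptor genes, 0.06 over 12 GABA-A receptor genes, 0.01 over 26 genes of the postsynaptic density and 0.04 over 29 of presynaptic release. Of the GABA-A receptor genes, Gabrb2 and Gabra2 separated upward and Gabrd downward, none passing. Gabrb2 was at 123, 130.5 and 124 against 135, 134 and 136 TPM (log2 fold change 0.10, SE 0.05) and Gabra2 at 25.6, 32.1 and 32.8 against 35.8, 35.6 and 38.3 TPM (log2 fold change 0.28, SE 0.19). Gabrd, the extrasynaptic subunit of granule cells, was at 39.7, 28.7 and 28.4 against 23.1, 25.2 and 25.1 TPM (log2 fold change -0.38, SE 0.14). Bdnf, the neurotrophin often measured after enrichment, overlapped at 23.1, 26.3 and 24.2 against 25.4, 28.5 and 34 TPM (log2 fold change 0.24, SE 0.13; adjusted p = 0.796, limma). Cytosolic ribosomal protein genes lay below 0 in 69 of 78 members with a median of -0.07, and 4 separated downward, a share near that of all genes (5.59%).

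The remaining comparison asks whether both exposures together depart from the sum of each alone. The interaction term passed for 2 of 14947 genes (0.0134%; limma, Benjamini-Hochberg), the pseudogene Gm44922 and an unnamed gene, both with values of 0 in whole groups. Among the genes with an interaction term within 1 SE of 0 were Rbm3 (0.08), Cirbp (-0.03), Sox11 (-0.03), Hspa8 (0.08), Kcnh3 (-0.02), Washc4 (0.03) and Sema3c (-0.01). The largest among the chaperones were those of Hspa1b (1.40, SE 0.60) and Hspa1a (1.38, SE 0.64), with adjusted p of 0.656 and 0.674 (limma). Both rest on ethanol-enriched 1 and 2. Map1a, a dendritic microtubule protein, was at 365, 409 and 413 TPM in saline-standard mice, 435, 429 and 403 in ethanol-enriched, 412, 359 and 329 in ethanol-standard and 316, 315 and 308 in saline-enriched mice. Its double exposure thus lay near the control level and above enrichment alone (interaction 0.55, SE 0.11; limma adjusted p = 0.460). Gfap had the same arrangement, with 169, 202 and 166 TPM in saline-enriched and 252, 248 and 253 in ethanol-standard mice (interaction 0.50, SE 0.13; adjusted p = 0.509, limma).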

How the data were processed

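RNA levels were measured in 12 mouse hippocampus libraries, made as stranded total RNA libraries after ribosomal RNA depletion, per the labels' protocols. The submitters' processing notes name CASAVA, kallisto, sleuth and the build mm10; roles, versions and annotation release: not given in the sources used here. Per gene, the authors deposited a signal that they name TPM; column totals run from 973187 to 1024536 rather than being equal, so a further scaling was applied. Each of the 12 value columns carries a name that matches 1 sample, with 0 left over. Depth is unknown, so no counting interval is given.

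Values were analysed as log2(TPM + 0.5), for genes with a mean of at least 1, with limma 3.58.1 in R 4.3.3: a mean per group over all 12 libraries (8 residual and 3.82 prior degrees of freedom), mean-variance trend, two-sided tests and Benjamini-Hochberg adjustment over 14947 genes, threshold 0.05. Fold changes on this scale understate low genes. An exact permutation test of 3 against 3 cannot go below p = 0.1, so none was used. The script was tested on simulated data. Positions and symbols are from GENCODE M21 (GRCm38), promoters from RefSeq (GRCm38.p6). Motifs were searched on both strands of 300-base windows.

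The 45 gene lists and the members of the comparison were chosen with earlier results of these data known, and no list was tested as a set. Named genes are the 10 in each direction that were called, filled up by the smallest p among genes without overlap (unnamed predicted genes left out), the 3 members of each list with the smallest p, and 25 fixed genes; other list members were named after their values were seen. Alternatives were other pseudocounts, filters and scalings, 6 libraries only, a replicate block, no trend, robust and weighted fits, and leaving out each library.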

Additional observations from a re-analysis of the deposited data

Results flagged for a closer look

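The interaction of ethanol and enrichment differed from 0 for 2 genes, both read with caution because their values are 0 in whole groups. For the pseudogene Gm44922 the term was 4.16 on the log2 scale (limma, adjusted p = 0.00263), from 8.47, 8.41 and 8.35 TPM in saline-standard mice and 0 in the other 9 libraries. For ENSMUSG00000118641, which has no symbol, it was -3.79 (limma, adjusted p = 0.0418), from 10.4, 5.69 and 4.41 TPM in ethanol-standard mice and 0 in the other 9 libraries. The second term did not pass with a pseudocount of 0.1, with the replicate block, or without saline-standard 1 or 3 or ethanol-enriched 1 or 2 (limma adjusted p between 0.0973 and 0.417). A value of 0 in this table can be a failed estimate.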

How the results depend on the processing

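The 2 genes that passed for ethanol-enriched against saline-standard mice became 1 with a mean of at least 5 TPM, which was Rbm3. They also became 1 with the replicate block, without the variance trend and with array weights, each time Gm44922. With no filter and with 6 libraries only, 2 genes passed, but Gm14681 and Gm49275, respectively, stood in place of Rbm3. Between 1 and 16 passed when a library was left out (6 without saline-standard 2, 16 without ethanol-enriched 3). The 2 interaction calls became 0 with a pseudocount of 0.1 (limma, 1105 genes at an unadjusted p under 0.05) and 4 with no filter. With a mean of at least 5 TPM they became 0 (889 genes), since both genes lay under that mean and were not tested there. Without a library the calls numbered between 1 and 12 (7 without saline-standard 2, 12 without ethanol-enriched 3). The cause of the other changes was not tested. Same-numbered libraries did not deviate together over all genes tested (r between -0.151 and 0.0576 over 18 pairs). Such a correlation cannot exclude a shared litter or day that moves few genes, and the labels do not say what the numbers mark. With the replicate block, Gm44922 alone passed for the groups (limma adjusted p = 0.00137). The interaction then passed for Gm44922 and Kcng2 (both 0.0250), and no longer for ENSMUSG00000118641 (0.134). Over the 157 named genes and 2494 values, 2467 kept their sign and 12 values of 7 genes turned it, all on leaving out a library and none of them called; the remaining 15 belong to ENSMUSG00000118641, whose value is 0. Where the sign turned, the ranges were -0.061 to 1.26 for Fos, -0.058 to 0.58 for Egr1, -0.10 to 0.62 for Nr4a1, -0.040 to 0.10 for Gfap, -0.25 to 0.14 for Mbp, -0.29 to 0.21 for Per1 and -0.23 to 0.62 for Slc17a6. Of 720 list medians, 681 kept their sign and 19 moved by more than the spread between saline-standard libraries. With depth unknown, no limit of detection is given.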
